A study of Bos taurus with 27 samples.

Results

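The genes of the heterogeneous nuclear ribonucleoproteins (hnRNPs), the SR proteins and their partners in the spliceosome were followed in rumen epithelium (RE) across fattening. Members were all genes whose name on the array begins with HNRNP, SRSF, SFRS, SF3A, SF3B, PRPF or U2AF, together with THRAP3, and they number 54 of the 14952 gene names measured. They comprise 17 hnRNP genes, 11 genes counted as SR proteins by name (SRSF, or SFRS in the older style), 3 U2AF, 3 SF3A, 6 SF3B and 13 PRPF genes, and THRAP3. The members were covered by 55 probes, and the brighter of the 2 probes was used for SFRS18. In current RefSeq names, SFRS13A is SRSF10, SF3B14 is SF3B6 and SFRS18 is PNISR. PNISR is an SR-related protein and is counted with the SR proteins only through its older name.

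The RE was taken by biopsy through a fistula from the same 9 castrated Japanese Black cattle at 14 months (Early, n = 9), 21 months (Middle, n = 9) and 29 months of age (Late, n = 9). All animals ate a high-concentrate diet with rice straw in every stage, and no group on another diet was measured. The diet was not constant. According to the paper, the share of forage was lower in the middle and late stages than in the early stage. The crude protein content of the concentrate fell from stage to stage. Diet composition and age therefore cannot be told apart. Each of the 27 biopsies was hybridized to a one-color array, and the comparisons are middle with early (the first period), late with middle (the second period) and late with early (the total period). The first and second periods share the middle-stage arrays, so their values are given side by side and are not independent of each other.

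Splicing removes introns from pre-mRNA. SR proteins bind exons and recruit the spliceosome, whereas hnRNPs coat nascent RNA and often block the use of nearby splice sites, so that the balance between them helps to set which exons are kept. U2AF and the SF3A and SF3B complexes mark the 3′ end of the intron and its branch site, and most PRPF proteins belong to the particles that assemble on these sites and catalyze the reaction. Epithelial cells use a set of alternative exons that differs from that of mesenchymal cells, and both kinds of cell are present in the rumen wall.

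The sequences of 6 probes are shown as examples of members raised or lowered at the middle stage, and each reads through in at least 1 open frame. They are not simply the largest changes, since HNRNPAB and SF3B3 fell more than PRPF31. Coordinates are those of the array design on bosTau6 (UMD 3.1), and no part of a sequence is set in capitals. The probes of the genes raised at the middle stage are those of HNRNPU (chr16:33168362-33168421, plus strand), THRAP3 (chr3:110139194-110139253, minus strand), HNRNPUL1 (chr18:50746732-50746791, plus strand) and SF3B1 (chr2:86362774-86362929, minus strand):
HNRNPU: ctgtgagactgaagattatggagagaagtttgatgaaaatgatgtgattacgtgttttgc
THRAP3: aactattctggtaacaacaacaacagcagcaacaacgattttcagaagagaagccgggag
HNRNPUL1: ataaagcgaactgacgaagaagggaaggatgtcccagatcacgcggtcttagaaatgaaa
SF3B1: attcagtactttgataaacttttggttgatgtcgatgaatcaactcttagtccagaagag

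The probes of the genes lowered at the middle stage are those of PRPF8 (chr19:23325956-23327006, minus strand) and PRPF31 (chr18:63450894-63451593, minus strand):
PRPF8: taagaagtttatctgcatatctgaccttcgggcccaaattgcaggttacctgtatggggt
PRPF31: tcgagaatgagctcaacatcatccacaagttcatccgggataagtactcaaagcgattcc

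The SF3B1, PRPF8 and PRPF31 probes cover 156, 1051 and 700 bases of the genome with 60 bases of sequence, and thus cross exon junctions and read spliced RNA. The probe of SRSF7 was designed from an expressed sequence tag, and its designed position is on another chromosome than the one RefSeq (ARS-UCD2.0) gives for the gene, so its values are those of the probe. A probe of 60 bases can also bind RNA of close family members, which these arrays do not separate.

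Levels are log2 of the processed signal (the background-subtracted intensity of a spot) minus the median of the array. The middle-stage arrays were dimmer: their median processed signal was 8.22 to 28.7, against 35.2 to 48.6 in the early and 32.2 to 47.0 in the late stage. Of the members, 53 of 54 were well above background on all 9 arrays of at least 1 stage, and 46 were so on all 27 arrays. SF3B14 was above background on 1 early, 0 middle and 1 late array. HNRNPH2 was above background on 9 early, 0 middle and 7 late arrays. Their middle level was only bounded, so both are left out of the plot of the first and second periods, and SF3B14 is also left out of that of the total period. The arrays lie on 5 slides scanned on 4 days, and only slide 2 holds more than 1 stage.

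Between the early and middle stages, hnRNP, SR protein, U2AF, SF3B and PRPF members differed in both directions, and THRAP3 rose. In the SF3A family only SF3A2 passed, with most of its middle values not well above background. In the fit across 15008 probes (limma with the animal as a block, Benjamini-Hochberg adjusted P below 0.05), 26 of 54 members were raised in the first period, 11 were lowered and 17 did not pass. Raised members were 48.1% of the group and lowered members 20.4%, beside 45.3% and 21.3% of all probes. With this scaling the shares of members lie near those of all probes, whatever their brightness. The median log2 fold change was 0.22 over the members and 0.32 over all probes. Of the members well above background on all arrays, 52.2% were raised and 17.4% lowered. These shares are farther from those of all probes of that brightness, 34.9% and 26.9%. In a bulk biopsy, fewer cells of a type and less RNA per cell cannot be told apart.

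THRAP3, an SR-related protein of nuclear speckles with roles in splicing and mRNA stability, showed the largest rise among the members. It is the only member included by its own name, with earlier results of these data known. Its rank among the members is therefore not independent of that choice. Its level ran from 1.15 to 3.17 (median 1.86) over the 9 early arrays, from 3.21 to 6.61 (median 4.45) over the middle arrays and from 1.34 to 2.28 (median 1.88) over the late arrays. Every middle value lay above every early and every late value. Between the early and middle stages the log2 fold change was 2.59 ± 0.29 (SE, n = 9 animals, adjusted P = 8.3e-07), a 6.04-fold rise seen in 9 of 9 animals. In the second period THRAP3 fell by 2.58 ± 0.29 (adjusted P = 3.6e-07), again in 9 of 9 animals. Late and early levels overlapped widely, and their difference of 0.01 ± 0.29 did not pass the test (adjusted P = 0.99).

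HNRNPU, a nuclear scaffold protein that binds RNA and chromatin, had the narrowest spread at the middle stage among the genes described by level. Its level was 1.26 to 1.78 (median 1.61) in the early, 2.30 to 2.87 (median 2.53) in the middle and 0.31 to 1.08 (median 0.59) in the late stage. None of the 3 ranges overlapped, and the late stage was the lowest. HNRNPU was raised by 0.97 ± 0.11 in the first period (adjusted P = 9.3e-07), fell by 1.89 ± 0.11 in the second (adjusted P = 1.1e-10) and fell by 0.92 ± 0.11 over the total period (adjusted P = 8.2e-06), each in 9 of 9 animals.

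**Figure D1:**
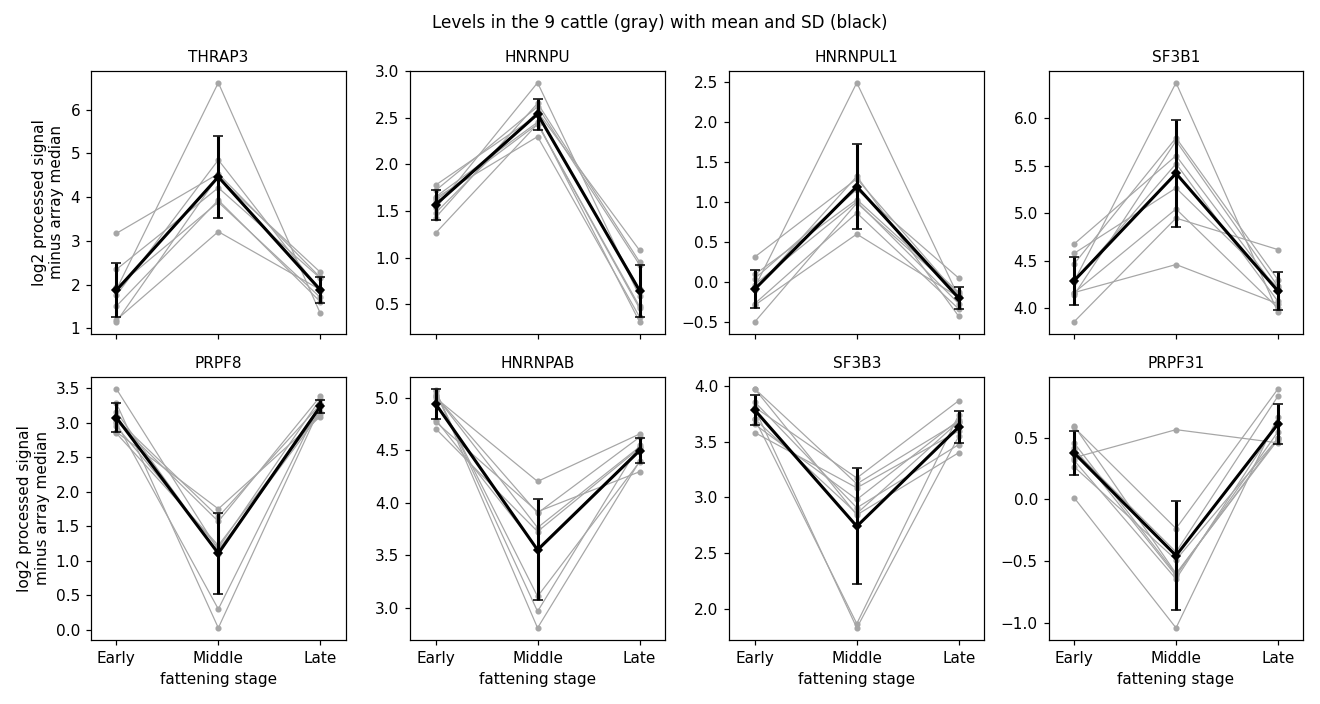
Levels (log2 processed signal minus the array median, y axis, a separate scale for each gene) of 8 members at the early, middle and late stages (x axis); gray lines are the 9 cattle, and black points and bars are the mean and SD. THRAP3, HNRNPU, HNRNPUL1 and SF3B1 peaked at the middle stage, and PRPF8, HNRNPAB, SF3B3 and PRPF31 were lowest there.

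Among the other hnRNP genes, 4 were lowered in the first period and 6 more were raised beside HNRNPU. The 7 raised and 4 lowered of 17 are shares near the 45.3% and 21.3% of all probes. HNRNPUL1, an HNRNPU-like protein, ran from −0.50 to 0.31 (median −0.07) in the early, 0.59 to 2.49 (median 1.03) in the middle and −0.44 to 0.04 (median −0.20) in the late stage. Its middle range lay above the other two, with 1 animal far above the rest. HNRNPUL1 was raised by 1.28 ± 0.16 (adjusted P = 2.2e-06) and then fell by 1.40 ± 0.16 (adjusted P = 3.6e-07).

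HNRNPL, which binds CA-rich RNA, ran from 2.61 to 3.33 (median 2.93) in the early, 3.05 to 4.35 (median 3.93) in the middle and 3.03 to 3.63 (median 3.19) in the late stage. The early and middle ranges overlapped only through the lowest middle animal. The rise was 0.98 ± 0.14 (adjusted P = 1.2e-05), seen in 9 of 9 animals, and HNRNPL fell by 0.64 ± 0.14 in the second period (adjusted P = 0.00048). After normexp background correction the rise was 0.30 and did not pass (adjusted P = 0.16). HNRNPD, HNRNPH1, HNRNPK and HNRNPR were raised by 0.31 to 0.55. The third gene of the U subfamily, HNRNPUL2, did not pass the test in any comparison, with log2 fold changes of 0.02, −0.14 and −0.12 in the first, second and total period.

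HNRNPAB, an A/B-type hnRNP, moved the other way. Its level was 4.71 to 5.07 (median 5.02) in the early, 2.81 to 4.20 (median 3.73) in the middle and 4.30 to 4.66 (median 4.52) in the late stage. The 3 ranges did not overlap, with the middle stage lowest. HNRNPAB fell by 1.39 ± 0.15 in the first period (adjusted P = 4.3e-07) and was raised by 0.94 ± 0.15 in the second (adjusted P = 1.5e-05). The other lowered genes, HNRNPA1, HNRNPA2B1 and HNRNPF, fell by 0.55, 0.38 and 0.52 and were raised by 0.54, 0.76 and 0.65 in the second period.

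Of the 11 SR protein genes, 8 were raised in the first period, 1 was lowered and 2 did not pass. Of all probes, 45.3% were raised and 21.3% lowered. The 8 include SRSF7, whose probe was designed at a position on another chromosome than the gene, and SFRS18, an SR-related protein counted here by name. The median log2 fold change over the 11 was 0.60, beside 0.32 over all probes. After normexp background correction only SRSF4 and SRSF7 of the 8 kept their call. Those of SRSF1, SRSF5, SRSF6, SRSF11, SFRS13A and SFRS18 were lost. SRSF7, which also acts in mRNA export, was at 0.84 to 1.44 (median 1.22) on the early, 1.27 to 3.83 (median 2.20) on the middle and 0.82 to 1.27 (median 1.05) on the late arrays. Early and middle values overlapped in 1 animal. The rise of 1.098 ± 0.21 (adjusted P = 0.00019) was seen in 8 of 9 animals, and SRSF7 fell by 1.24 ± 0.21 in the second period (adjusted P = 3.9e-05). SRSF1, SRSF4, SRSF5, SRSF6, SRSF11, SFRS13A and SFRS18 were raised by 0.47 to 0.90. SRSF2 was the only SR protein gene that was lowered in this comparison, and it fell by 0.57 ± 0.16 (adjusted P = 0.0039). SRSF3 and SRSF9 gave log2 fold changes of −0.20 and 0.11 that did not pass.

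SRSF4 had levels of −0.35 to 0.50 (median 0.12) in the early, 0.34 to 1.94 (median 0.84) in the middle and −0.51 to 0.16 (median −0.29) in the late stage. Middle and late values did not overlap, and SRSF4 fell by 1.26 ± 0.17 between them (adjusted P = 2.8e-06). SFRS18, an arginine- and serine-rich nuclear protein, had levels of 1.25 to 1.85 (median 1.64) in the early, 1.46 to 2.87 (median 2.65) in the middle and 0.14 to 1.63 (median 0.55) in the late stage. Each pair of its ranges overlapped, although SFRS18 fell by 1.73 ± 0.19 in the second period (adjusted P = 2.9e-07), in 9 of 9 animals. The dimmer of its probes, at chr9:51037066-51037125 beside chr9:51048717-51048776 for the brighter one, gave 1.13, −1.97 and −0.84 in the first, second and total period, where the brighter gave 0.84, −1.73 and −0.89.

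The factors that read the 3′ end of the intron were divided. U2AF1, the small subunit that contacts the AG at the end of the intron, was raised by 0.70 ± 0.09 (adjusted P = 6.7e-06), while its relative U2AF1L4 fell by 0.86 ± 0.13 (adjusted P = 2.8e-05). After normexp correction the call of U2AF1 was lost and that of U2AF1L4 was kept. U2AF2, the large subunit that binds the pyrimidine tract, gave −0.44 ± 0.23, which did not pass (adjusted P = 0.091). SF3A1 and SF3A3 did not pass in any comparison. SF3A2 was at −2.39 to −1.52 (median −1.99) in the early, −3.72 to −1.81 (median −2.98) in the middle and −2.42 to −1.76 (median −1.94) in the late stage, and was above background on 1 of the 9 middle arrays. It fell by 0.88 ± 0.21 (adjusted P = 0.0012), a difference that rests mostly on middle values not well above background and turned to 0.11 under normexp correction.

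The SF3B complex, which holds the branch site, moved in both directions. SF3B1, its largest subunit, was at 3.86 to 4.68 (median 4.28) in the early, 4.46 to 6.37 (median 5.52) in the middle and 3.96 to 4.62 (median 4.18) in the late stage. The middle range overlapped the others only through its lowest animal. SF3B1 was raised by 1.13 ± 0.17 (adjusted P = 2.2e-05) and fell by 1.24 ± 0.17 in the second period (adjusted P = 4.7e-06), each in 9 of 9 animals. The first-period call was lost after normexp correction, with a log2 fold change of 0.49 (adjusted P = 0.13).

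SF3B3 lay at 3.58 to 3.97 (median 3.80) in the early, 1.83 to 3.17 (median 2.91) in the middle and 3.40 to 3.87 (median 3.68) in the late stage. No middle value reached the other stages, and 2 middle animals, at 1.83 and 1.86, lay below the other 7, which were at 2.84 or more. SF3B3 fell by 1.04 ± 0.15 (adjusted P = 1.5e-05) and was raised by 0.89 ± 0.15 in the second period (adjusted P = 4.3e-05). SF3B4 was at −0.77 to 0.10 (median −0.31) in the early, −3.05 to 2.20 (median −2.35) in the middle and −1.27 to −0.42 (median −0.69) in the late stage. It was above background on 2 of the 9 middle arrays, 1 of which gave its highest level in any stage. Its fall of 1.44 ± 0.40 (adjusted P = 0.0041) rests mostly on middle values not well above background, and was −0.088 under normexp correction (adjusted P = 0.43). Its rise in the second period was 0.98 ± 0.40 (adjusted P = 0.034), and this call was lost when any 1 of 7 animals was left out (0.83 to 1.43 over the 9 fits).

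PRPF8, the protein at the catalytic center of the spliceosome, had the largest fall of the members in the first period. Its level was 2.85 to 3.49 (median 3.03) in the early, 0.03 to 1.75 (median 1.19) in the middle and 3.09 to 3.38 (median 3.26) in the late stage. All middle values lay below all early and late values. PRPF8 fell by 1.97 ± 0.18 (adjusted P = 9.5e-08), a 3.91-fold change, and was raised by 2.13 ± 0.18 in the second period (adjusted P = 1.1e-08), each in 9 of 9 animals.

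PRPF31, which joins the U4/U6 and U5 particles, was at 0.01 to 0.60 (median 0.40) in the early, −1.04 to 0.56 (median −0.60) in the middle and 0.46 to 0.89 (median 0.55) in the late stage. Only 1 middle animal reached the range of the other stages. The probe was well above background on 7 of the 9 middle arrays. PRPF31 fell by 0.83 ± 0.14 (adjusted P = 5.0e-05) and was raised by 1.07 ± 0.14 (adjusted P = 2.1e-06). Of the other 11 PRPF genes, 7 were raised in the first period and 4 did not pass. All 13 PRPF genes thus had 7 raised and 2 lowered, beside 45.3% and 21.3% of all probes. PRPF38A, which acts in spliceosome assembly, was raised by 0.63 and fell by 0.90 in the second period. PRPF19, a ubiquitin ligase of the active spliceosome, gave −0.53 ± 0.28 (adjusted P = 0.11).

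**Figure D2:**
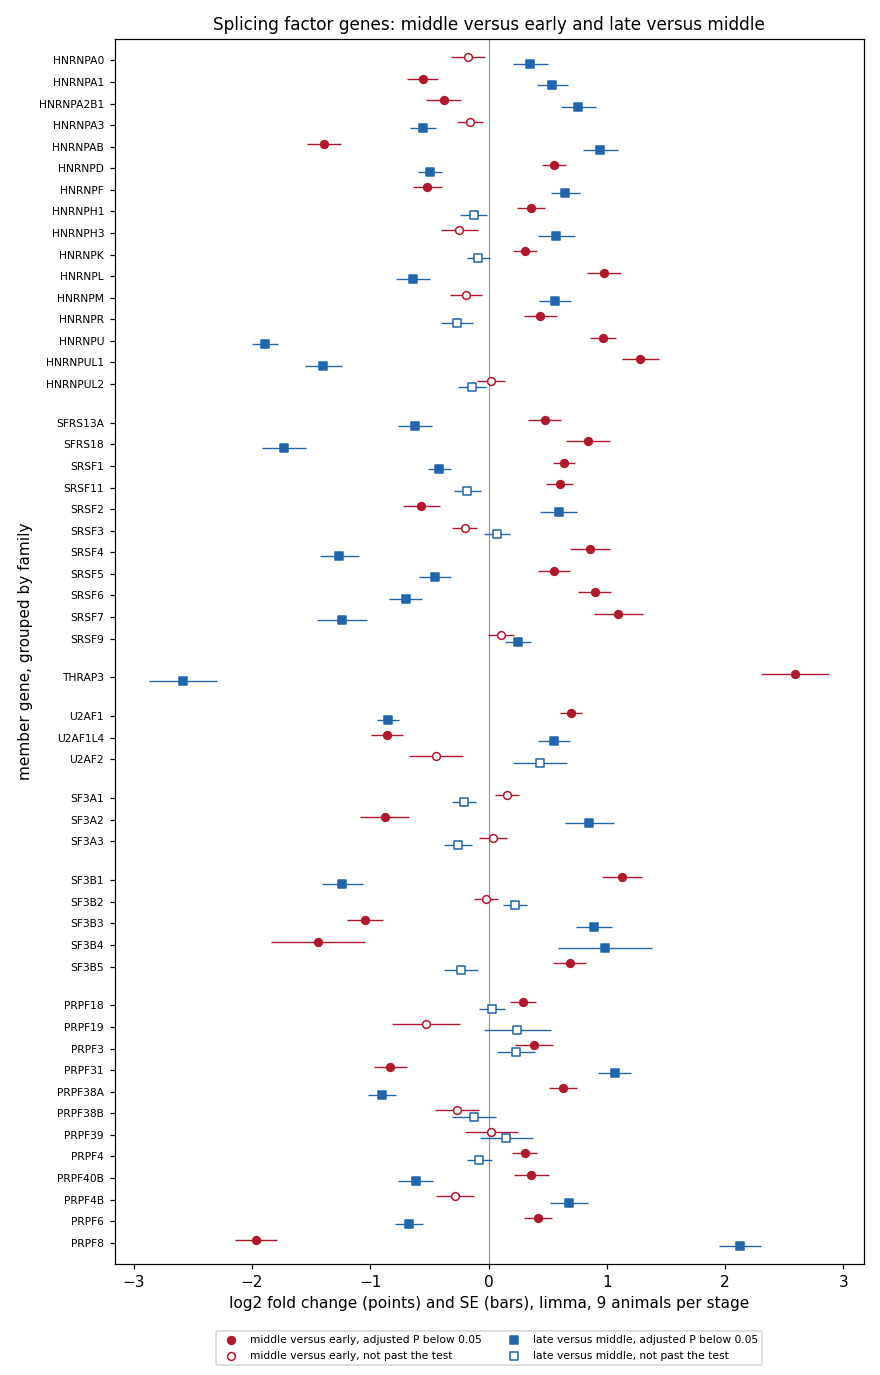
Log2 fold changes (x axis) of 51 members, grouped by family (y axis), for middle versus early (red circles) and late versus middle (blue squares); bars are the SE of the fit, and open symbols did not pass an adjusted P of 0.05. The middle-stage arrays enter both comparisons, with opposite sign. THRAP3 and PRPF8 lie farthest from 0, in opposite directions.

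In the second period, 16 members were raised, 19 were lowered and 19 did not pass. These are 29.6% and 35.2% of the members, beside 27% and 44.6% of all probes, and the median log2 fold change was −0.12 over the members and −0.27 over all probes. Ranges of levels did not overlap for 12 members (22.2%) in the first period, beside 13% of all probes, and for 13 members (24.1%) in the second period, beside 20.7% of all probes. A change of at least 2-fold with an adjusted P below 0.05 was found for 8 members (14.8%) in the first period, beside 31.4% of all probes, and for 9 (16.7%) in the next, beside 39% of all probes.

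Over the total period the members changed little, with shares of calls near those of all probes, whatever their brightness. Of the members well above background on all arrays, 8.70% were raised and 8.70% lowered, beside 18% and 7.94% of probes of that brightness. Only 9 of 54 passed, 5 raised (9.26%) and 4 lowered (7.41%), beside 11.2% and 8.93% of all probes, and none of the 9 reached 2-fold, beside 4.11% of all probes. Ranges were apart for 3 members (5.56%), beside 6.55% of all probes. The median log2 fold change was 0.02 over the members and 0.03 over all probes.

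HNRNPU had the largest fall, given above, and SFRS18 fell by 0.89 ± 0.19 (adjusted P = 0.0026) in 8 of 9 animals. HNRNPA3, a relative of HNRNPA1 and HNRNPA2B1, was at 4.33 to 4.63 (median 4.46) in the early, 3.83 to 4.72 (median 4.21) in the middle and 3.29 to 4.01 (median 3.79) in the late stage. Early and late values did not overlap. HNRNPA3 fell by 0.71 ± 0.11 (adjusted P = 0.00018) over the total period and by 0.56 ± 0.11 in the second (adjusted P = 0.00022). HNRNPAB ended below its early range and fell by 0.45 ± 0.15 (adjusted P = 0.037).

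The 5 genes raised over the total period had overlapping ranges. PRPF3, a protein of the U4/U6 particle, was at −0.74 to −0.41 (median −0.59) in the early, −0.79 to 0.82 (median −0.21) in the middle and −0.49 to 0.36 (median 0.09) in the late stage. It was raised by 0.61 ± 0.16 (adjusted P = 0.011) in 9 of 9 animals. SRSF11 was at 3.51 to 4.41 (median 4.01) in the early, 4.17 to 4.95 (median 4.65) in the middle and 4.01 to 4.65 (median 4.48) in the late stage, and was raised by 0.42 ± 0.11 (adjusted P = 0.013).

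The small SF3B subunit SF3B5 lay at 6.27 to 6.84 (median 6.41) in the early, 6.75 to 7.72 (median 6.97) in the middle and 6.71 to 7.16 (median 6.94) in the late stage. Its rise was 0.45 ± 0.14 (adjusted P = 0.028). SRSF9 lay at 6.33 to 6.54 (median 6.47) in the early, 5.98 to 6.93 (median 6.66) in the middle and 6.48 to 6.99 (median 6.80) in the late stage, a rise of 0.36 ± 0.11 (adjusted P = 0.026). PRPF18, a factor of the second catalytic step, lay at 3.28 to 3.78 (median 3.54) in the early, 3.40 to 4.29 (median 3.83) in the middle and 3.66 to 4.01 (median 3.84) in the late stage, a rise of 0.32 ± 0.11 (adjusted P = 0.047). Of the 9 calls of the total period, only that of HNRNPU was kept under all 5 other scalings and with slide as a random block.

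**Figure D3:**
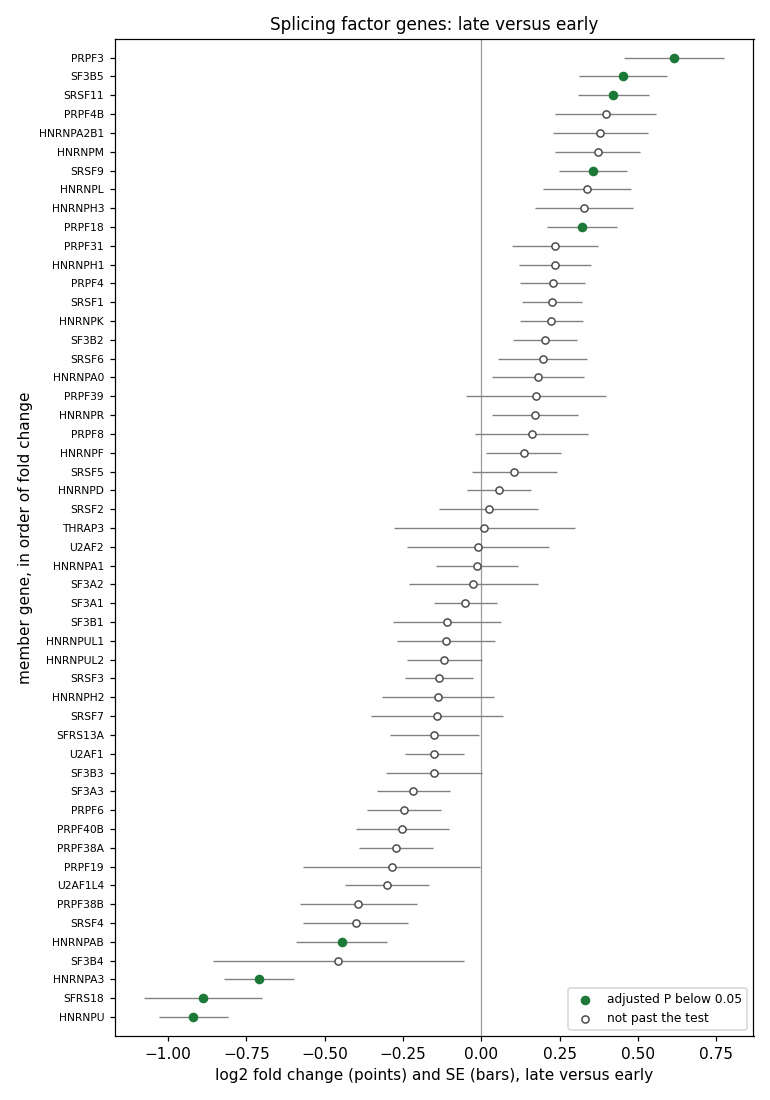
Log2 fold change between the late and early stages (x axis) for 52 members in order (y axis); bars are the SE, and filled points passed an adjusted P of 0.05. The 4 lowered members run from HNRNPU at −0.92 to HNRNPAB at −0.45, and the 5 raised members from PRPF18 at 0.32 to PRPF3 at 0.61.

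The spread between animals was widest at the middle stage. Over the 46 members well above background on all arrays, the median SD of the level was 0.17 in the early, 0.38 in the middle and 0.16 in the late stage, beside 0.21, 0.42 and 0.20 over the 6797 probes of the same brightness. These 46 members had 24 raised (52.2%) and 8 lowered (17.4%) in the first period and 13 raised (28.3%) and 18 lowered (39.1%) in the second. Over the total period 4 went in each direction (8.70%). The calls among all probes of that brightness were 34.9% raised and 26.9% lowered, 37.8% and 30.4%, and 18% and 7.94%. Their median log2 fold changes were 0.08, 0.10 and 0.14, against 0.30, −0.16 and 0.04 for the members of that brightness. Beside probes of that brightness, members were more often raised in the first period and more often lowered in the second.

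The split between raised and lowered members depended on how the arrays were scaled. Normexp correction used an offset of 50, above the median processed signal of every array. That signal was 8.22 to 28.7 in the middle stage and at most 48.6 in the early and 47.0 in the late stage. The part of the offset in the normexp values was not tested. In the first period 24 to 27 members were raised and 11 lowered under 75th percentile, bright-probe median, quantile and series matrix scaling. After normexp background correction 9 were raised and 15 lowered. Under 75th percentile scaling 50% of the members were raised and 20.4% lowered, beside 48.7% and 20.0% of all probes. Under normexp these shares were 16.7% and 27.8%, beside 45.4% and 22.2% of all probes. HNRNPU, HNRNPUL1, SRSF4, SRSF7 and THRAP3 stayed raised under all 5 of these settings. HNRNPA1, HNRNPAB, HNRNPF, PRPF31, PRPF8, SF3B3, SRSF2 and U2AF1L4 stayed lowered. In the second period the split of 16 raised and 19 lowered became 13 and 28 under 75th percentile scaling and 21 and 10 under normexp. Under 75th percentile scaling these were 24.1% and 51.9% of the members, beside 21.6% and 51.8% of all probes. Under normexp they were 38.9% and 18.5%, beside 32.5% and 46.7% of all probes. The 7 members that stayed lowered under all 5 were HNRNPU, HNRNPUL1, PRPF40B, SFRS18, SRSF4, SRSF7 and THRAP3, and 12 of the 16 raised members stayed raised. PRPF40B was well above background on only 6 of the 9 middle and 8 of the 9 late arrays. Over the total period 2 were raised (3.70%) and 9 lowered (16.7%) under 75th percentile scaling, beside 6.65% and 12.9% of all probes. Scaling also moved the median of all probes, from 0.32 to 0.09 in the first period under quantile normalization and from −0.27 to −0.46 in the second under 75th percentile scaling, and the members' medians were 0.11 and −0.31 in those settings. Under quantile normalization 44.4% of the members were raised and 20.4% lowered in the first period, beside 24.5% and 23.3% of all probes. In the second, 27.8% were raised and 50% lowered, beside 27.1% and 25.7% of all probes.

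**Figure D4:**
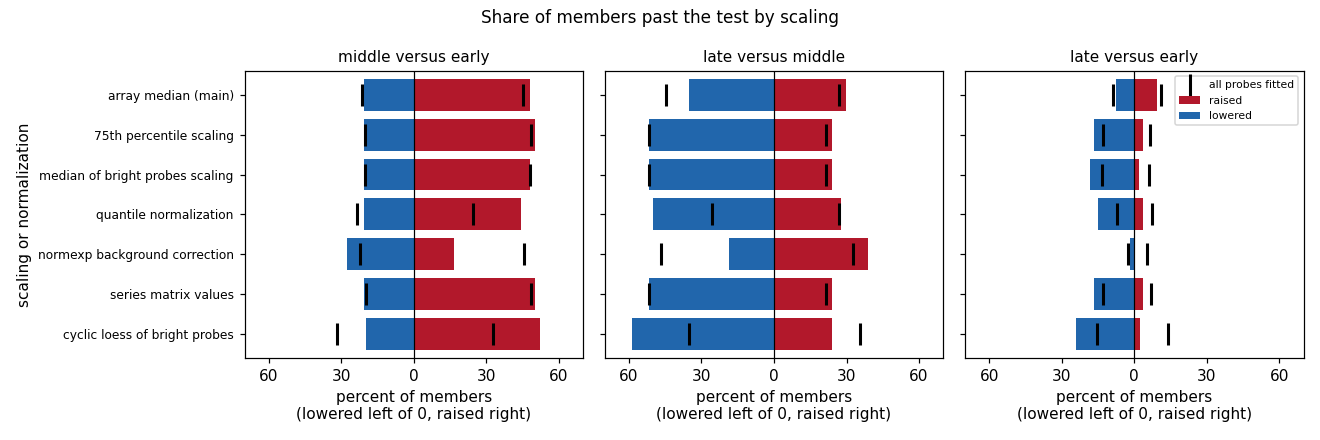
Percent of the members raised (red, right of 0) and lowered (blue, left of 0) at an adjusted P below 0.05 in the 3 comparisons, for each scaling of the arrays (y axis); black ticks give the same percent over all probes fitted. The fit with cyclic loess holds only the 46 members well above background on all arrays. Under normexp, with an offset of 50 that exceeds the median processed signal of every array, the balance of members turned in the first and second periods.

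Slide and stage were largely the same division of the arrays. Within slide 2, 7 middle arrays stand beside 1 early array of another animal, and all 8 also enter the fit of all arrays. The 26 raised and 11 lowered members had the same direction there, 14 of them at an unadjusted P below 0.05 and none after adjustment. The log2 fold change was 3.25 for THRAP3, 1.07 for HNRNPU and −1.86 for PRPF8. The first scan day holds 9 early and 7 middle arrays, of which 8 early arrays lie on slide 1 and all 7 middle arrays on slide 2, so that slide and stage cannot be told apart there. A fit of those arrays called 20 of the raised and 10 of the lowered members, with values of 2.42, 0.98 and −2.12. The late arrays share no slide and no scan day with the others, so that late stage and slide cannot be told apart.

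The probes of 15 members crossed an exon junction. In the first period 6 of the 11 lowered, 6 of the 26 raised and 3 of the 17 other members had such a probe, beside 19.4%, 16.7% and 12.7% of all probes with those calls. The 6 lowered ones were PRPF8, HNRNPAB, SF3B3, SF3A2, U2AF1L4 and PRPF31. The median GC content of the probes was 45% for lowered and 38.3% for raised members, and 45% in both classes over all probes. The part of probe design in these values was not tested.

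Other spliceosome genes were taken as fixed lists. Of 27 proteins of the small nuclear ribonucleoproteins, 13 were raised (48.1%) and 6 lowered (22.2%) in the first period, shares near the 45.3% and 21.3% of all probes, led by SNRNP200, the helicase that unwinds U4 from U6, at 1.60 ± 0.19 (adjusted P = 1.9e-06), and by SNRPN at −1.62 ± 0.25 (adjusted P = 2.7e-05). In the second period 8 were raised and 11 lowered, beside 27% and 44.6% of all probes. Of 12 partners of U2 and the branch site, 5 were raised (41.7%) and 4 lowered (33.3%) in the first period. In the second, 4 went each way (33.3%). SMNDC1 fell by 1.68 ± 0.16 in the second period (adjusted P = 7.1e-08). Of 21 factors of the Prp19 complex and the catalytic steps, 6 were raised (28.6%) and 8 lowered (38.1%) in the first period. They ran from CWC27 at 1.77 to PPIL1 at −2.06. In the second, 9 were raised (42.9%) and 7 lowered (33.3%). For the U2 partners and these factors the shares of all probes are again 45.3% and 21.3%, then 27% and 44.6%.

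The enzymes and the importer that act on SR proteins were mostly raised in the first period. Of 9 SR protein kinases and importers, 8 were raised in the first period and 0 were lowered, beside 45.3% of all probes raised, with a median log2 fold change of 0.56. The largest rise was that of TNPO3, which carries phosphorylated SR proteins into the nucleus, at 1.04 ± 0.11 (adjusted P = 6.5e-07). In the second period 4 of the 9 were lowered, a share near the 44.6% of all probes, led by CLK1, a kinase that releases SR proteins from speckles, at −0.99 ± 0.23 (adjusted P = 0.00085), and 1 was raised. Of 17 SR-related proteins, 5 were raised and 5 lowered (29.4% each) in the first period, from SREK1 at 1.54 to LUC7L2 at −1.61. Of all probes, 45.3% were raised and 21.3% lowered. In the second period 8 of the 17 were raised (47.1%) and 5 lowered (29.4%), beside 27% and 44.6% of all probes.

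Of 24 other RNA-binding regulators, 7 were raised (29.2%) and 10 lowered (41.7%) in the first period, beside 45.3% and 21.3% of all probes. In the second, 11 were raised (45.8%) and 7 lowered (29.2%), beside 27% and 44.6% of all probes. SFPQ, a paraspeckle protein, was raised by 1.77 ± 0.18 (adjusted P = 2.5e-07), and the poly(C)-binding protein PCBP2 fell by 1.72 ± 0.21 (adjusted P = 2.0e-06). Of 7 exon junction complex genes, 1 was raised (14.3%) and 4 were lowered (57.1%) in the first period, with CASC3 at −1.50 ± 0.18 (adjusted P = 1.6e-06). In the second, 4 were raised (57.1%) and 1 lowered (14.3%), set beside the same shares of all probes. Over the total period each of these lists had at most 6 called genes, where 11.2% of all probes were raised and 8.93% lowered.

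The labels give the tissue as rumen epithelium, although their extraction text names neutrophils and liver. Of 12 stratified epithelium markers on the array, 10 exceeded background clearly on every one of the 27 arrays, and KRT4 did on none. Their summed signal, relative to the array median, was 1946 to 2859 in the early, 976 to 2880 in the middle and 2151 to 2639 in the late stage. In the first period 2 of the 12 were raised (16.7%), 5 lowered (41.7%) and 5 did not pass (median log2 fold change 0.03). Of all probes, 45.3% were raised and 21.3% lowered. In the second 3 were raised (25%) and 2 lowered (16.7%, median 0.08), beside 27% and 44.6% of all probes. Involucrin (IVL), made in differentiating layers, fell by 1.99 ± 0.19 in the first period (adjusted P = 1.6e-07) and was raised by 2.58 ± 0.19 in the second, whereas the desmosomal cadherin DSG3 was raised by 0.45 and then fell by 0.43.

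Markers of other cells are given beside the shares of all probes, 45.3% raised and 21.3% lowered in the first period and 44.6% lowered in the second. Of 4 red blood cell genes 2 were raised in the first period, and their summed signal was 40.1 to 69.3 in the early, 106 to 200.0 in the middle and 46.3 to 92.5 in the late stage, with the middle range apart. Of 6 smooth muscle genes 3 were raised in the first and 5 lowered in the second period, with sums of 115 to 401, 103 to 887 and 129 to 220.0 that overlapped. Of 6 leukocyte genes 3 were raised and then 4 lowered, with overlapping sums of 13.2 to 30.6, 12.02 to 26.8 and 13.3 to 35.0. Of 6 fibroblast genes 1 was raised and 1 lowered, and of 5 endothelial genes likewise 1 and 1, with CDH5 above background on no array. The part of these cells in the members' values was not tested.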

How the data were processed

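RNA from 27 RE biopsies was labeled with cyanine 3 and hybridized to one-color Agilent bovine arrays by the authors. The deposited intensity values are those of Agilent Feature Extraction, a processed signal per spot on a linear scale after background subtraction. The file headers give version 11.0.1.1, whereas the submitters' processing notes give 9.5. The same deposited output marks spots as well above background, saturated or outlying with values of 0 or 1 that the authors did not alter, and no spot was saturated. A table of log2 values deposited by the authors was used as an alternative only. Compared with the scanner values, it is log2 processed signal scaled to each array's 75th percentile, with an array offset of at most 0.0207 and an SD over probes of at most 0.0287. Its column medians run from −3.07 to −2.60, no centering of genes was found, and its direction is that of the scanner values. Depth does not apply to arrays, and their number limits the precision.

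Control and outlier spots were left out, spots of one probe were averaged, and log2 processed signal was centered on the median of each array, as in the methods. Stages were compared in 1 fit of 15008 probes with limma 3.58.1 in R 4.3.3, with the animal as a fixed block and Benjamini-Hochberg adjustment over all probes. A call is an adjusted P below 0.05. Samples were paired by the cattle number that the sample descriptions give, per the labels. The deviations of arrays from one animal correlated with a mean r of 0.16 (−0.15 to 0.46 over 27 pairs, 24 above 0). The script was tested on simulated data.

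For each gene the brightest probe by mean level was used. Levels are given for HNRNPU, THRAP3 and the 5 largest rises and falls per comparison among called members bright on the 9 arrays of either stage, and from other lists at most the most raised and most lowered gene. The members and lists were chosen with earlier results of these data known. Alternatives were other scalings, normexp background correction (offset 50), a filter on dim probes, outlier spots kept, no animal block, slide as a random block, slide 2 alone, the methods' paired test, and each animal left out. Cyclic loess and a fit of scan day 1 were chosen after seeing the data. RefSeq was used for gene names only. Of the members, 1 is counted but not reported by name.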

Additional observations from a re-analysis of the deposited data

Results flagged for a closer look

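Levels of the 20 members described by range were screened for single animals far from the rest of their stage, in 60 sets of 9 values. Such a value was found in 6 sets, where chance gives about 1 in 20. The gap to the nearest other animal, divided by the range of the set, was 0.618 for HNRNPUL1 (middle stage, animal 4 at 2.49, next 1.32), 0.518 for THRAP3 (middle, animal 4 at 6.61, next 4.85) and 0.499 for PRPF31 (middle, animal 4 at 0.56, next −0.24). The middle-stage array of animal 4 was the dimmest of the 27, with a median processed signal of 8.22. Without animal 4 the log2 fold changes of the first period were 1.13 for HNRNPUL1 and 2.33 for THRAP3, and that of PRPF31 in the second period was 1.21.

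For SF3B4 the value was 0.554 (middle, animal 7 at 2.20, next −0.71), and without animal 7 its fall in the first period was −1.91 and its rise in the second 1.43. For HNRNPL it was 0.504 (middle, animal 8 at 3.05, next 3.71), and for SF3A2 0.659 (late, animal 9 at −2.42, next −1.98).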

How the results depend on the processing

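Counts for the first and second periods moved by less than 1.5 times under most alternatives. After normexp correction 9 members were raised in the first (16.7%) and 10 lowered in the second period (18.5%), beside 45.4% and 46.7% of all probes. With slide as a random block 7 were lowered in the first and 8 raised in the second, and shares of all probes are not given for this fit. Within slide 2 limma called 0 members raised and 0 lowered (12 raised and 2 lowered ones at an unadjusted P below 0.05). Without the replicate block, 25 members were raised and 11 lowered in the first, 16 and 21 in the second, and 5 and 4 over the total period. Leaving out animals gave 23 to 26 raised and 10 to 12 lowered members in the first and 13 to 16 and 19 to 21 in the second period. Over the total period it gave 2 to 9 raised (9 without animal 4, 2 without animals 3, 5, 6 or 7, 3 without animals 2 or 8) and 3 to 5 lowered.

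The total period gave 2 raised and 9 lowered under 75th percentile scaling and the series matrix values, 1 and 10 under bright-probe scaling, 2 and 8 under quantile normalization, 0 and 1 under both normexp and slide as a random block (8 and 1 raised at an unadjusted P below 0.05), 1 and 11 under cyclic loess, and 16 and 9 by the methods' t-test. Of all probes, 6.65% were raised and 12.9% lowered under 75th percentile scaling, and 6.16% and 13.4% under bright-probe scaling. Under quantile normalization these shares were 7.13% and 7.24%, and under normexp 5.34% and 2.61%. Under cyclic loess 2.17% of the members fitted were raised and 23.9% lowered, beside 13.8% and 15.3% of all probes fitted. For slide as a random block and the t-test, shares of all probes are not given. The median of the members was −0.16 in the first period under normexp, beside 0.12 over all probes. In the second it was −0.31 under 75th percentile scaling, bright-probe scaling and the series matrix values, each beside −0.46 over all probes. It was 0.35 under normexp (all probes −0.11) and −0.39 under cyclic loess (all probes fitted 0.013). Over the total period it was −0.12 under bright-probe scaling, 0.15 under normexp and −0.11 under cyclic loess. The medians of all probes fitted were −0.099, −0.0069 and 0.0054 in these settings. The cause was not tested.

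Of 668 alternative values for single members, 573 stayed on their side of the threshold, 83 no longer passed and 12 changed sign. SF3A2 in the first period turned to 0.11 under normexp. The other 11 are of THRAP3 over the total period, which did not pass in any fit: −0.11, −0.12, −0.057, −0.020, −0.11 and −0.12 under 75th percentile, bright-probe, quantile, normexp, series matrix and cyclic loess settings, and −0.084 to 0.14 with an animal left out. Over the total period the calls of PRPF18, SRSF9, HNRNPAB and SF3B5 were lost without 1 animal in 7, 6, 6 and 4 of 9 fits. Low signal on the middle-stage arrays limits the dim members.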
